A study of Mus musculus with 12 samples.

Results

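Regulatory T (Treg) cells that had lost either of the proteins Lkb1 or TGF-βR2 were compared, as 1 group of 6 knockout arrays, with 6 control arrays, to describe what the deletions had in common. The members were all 12 arrays of the series, chosen from their titles and not from any measured value. Each array carried RNA of CD4+YFP+ Treg cells sorted from mouse spleen and lymph nodes. In the Lkb1 experiment 3 arrays came from Foxp3Cre/+Lkb1f/f mice and 3 from Foxp3Cre/+ mice, all labelled female. In the Tgfbr2 experiment 3 arrays came from Foxp3CreTgfbr2 f/f mice and 3 from Foxp3Cre mice, all labelled male. All 4 genotypes, the controls included, carry a YFP-Cre fusion in the Foxp3 gene, which deletes floxed genes in cells that express Foxp3 and marks these cells with YFP. Foxp3 is X-linked, so the Foxp3Cre/+ females also keep Treg cells that use the intact allele and the floxed genes, and these were not sorted. By these labels the sorted Lkb1-deficient cells came from animals with other functional Treg cells, whereas the TGF-βR2-deficient cells came from males in which every Treg cell carries the Cre. The mice had been crossed to C57BL/6. The sources used here give neither their ages nor whether an array held RNA of 1 mouse or of a pool, and the 3 arrays per genotype are labelled as biological replicates.

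Treg cells are CD4+ T cells that keep other immune cells in check, and they depend on the transcription factor Foxp3. They act through surface enzymes that turn extracellular ATP into adenosine, through secreted molecules such as IL-10 and Fgl2, and through receptors that place them in tissues. TGF-β signals through the receptors Tgfbr1 and Tgfbr2 to Smad proteins, which induce genes such as Itgae and their own inhibitors Smad7 and Skil. Lkb1, encoded by Stk11, is a kinase that activates AMPK and related kinases, which sense the energy state of the cell. The pooled comparison asked which genes differed from control in the same direction after either deletion.

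The values were log2 signals of 41345 transcript clusters per array, each expressed relative to the median of its own array. The array medians fell into 2 sets. Of the 12 arrays 8 had medians between 5.48 and 5.60 and are called lower-intensity arrays, and 4, 1 of each genotype, had medians between 6.30 and 6.33 and are called higher-intensity arrays. All 4 higher-intensity arrays went against their labelled sex. Xist, a long RNA made from the silenced X of female cells, lay at -0.999 and -1.24 on the higher-intensity Lkb1 control and Lkb1 KO arrays (labelled female) and at 4.54 and 4.70 on the higher-intensity Tgfbr2 control and Tgfbr2 KO arrays (labelled male). Eif2s3y, a Y-linked gene, lay at 3.11 and 3.00 on the former and at -1.83 and -2.38 on the latter. The division into knockout and control does not use the experiment label and would be the same if these arrays had been exchanged between the experiments, but the strata and the experiment block do use it, and an exchange was not tested. The calls, the leading genes and some of the gene lists are therefore also given from the 8 lower-intensity arrays. The other lists may differ there too. The 4 combinations of experiment and intensity set are called strata; those of lower intensity hold 2 knockout and 2 control arrays and those of higher intensity 1 and 1. T cell marker genes averaged between 5.26 and 5.62 above the array median on every array, and Foxp3 lay between 5.59 and 5.88.

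Few transcript clusters passed the test in the pooled comparison. With experiment and intensity set as blocks, limma called 2 transcript clusters lower in the knockout arrays (0.00484% of those tested) and 0 higher (0%) at a Benjamini-Hochberg adjusted p under 0.05. The called genes were Prg4 and Ncmap, so that 0.00881% of the 22709 named genes were called. At an unadjusted p under 0.05 there were 781 lower (1.89%) and 669 higher (1.62%), and the smallest adjusted p of a higher transcript cluster was 0.158. The median standard error of a difference was 0.11 on the log2 scale. A lower level in sorted bulk RNA cannot tell fewer cells that express a gene from less RNA per cell. In the lower-intensity arrays alone 2 transcript clusters were called lower (0.00484%), Prg4 and Il1rl1, and 0 higher (0%). None was called in the higher-intensity arrays alone (0%), the Lkb1 arrays alone (0%) or the Tgfbr2 arrays alone (0%), where unadjusted p under 0.05 was reached by 865 (2.09%), 727 (1.76%) and 857 (2.07%) lower and by 900 (2.18%), 564 (1.36%) and 1240 (3%) higher transcript clusters, respectively. In the lower-intensity arrays it was reached by 642 lower (1.55%) and 734 higher (1.78%).

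Promoters are shown for 3 genes whose knockout arrays lay wholly below or above the controls: Ncmap (called lower), Il1rl1 (the receptor of IL-33) and Il12rb2 (a subunit of the IL-12 receptor, on the higher side). Each window runs from 250 bases before to 50 bases after an annotated start in the RefSeq table of build GRCm38.p6, 5′ to 3′ on the gene's strand. Capitals mark 3 motifs searched on both strands, which are CAGAC (the Smad core), GTAAACA (a forkhead motif) and GCGTG (the core bound by the aryl hydrocarbon receptor); no 2 matches overlap in these windows. The Ncmap window is chr4:135398178-135398477 on the minus strand, the first of 2 annotated starts. The second Ncmap start, not shown, holds 2 Smad cores and 1 aryl hydrocarbon receptor core. The Il1rl1 window is chr1:40439379-40439678 on the plus strand, the second of 2 starts; the first holds none of the motifs. The Il12rb2 window is chr6:67376139-67376438 on the minus strand.
Ncmap: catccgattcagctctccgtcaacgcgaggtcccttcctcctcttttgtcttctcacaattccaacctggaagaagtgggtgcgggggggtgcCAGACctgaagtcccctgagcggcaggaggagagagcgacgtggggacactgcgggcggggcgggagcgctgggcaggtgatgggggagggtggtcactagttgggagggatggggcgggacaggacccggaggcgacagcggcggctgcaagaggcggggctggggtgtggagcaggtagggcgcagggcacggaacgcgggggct
Il1rl1: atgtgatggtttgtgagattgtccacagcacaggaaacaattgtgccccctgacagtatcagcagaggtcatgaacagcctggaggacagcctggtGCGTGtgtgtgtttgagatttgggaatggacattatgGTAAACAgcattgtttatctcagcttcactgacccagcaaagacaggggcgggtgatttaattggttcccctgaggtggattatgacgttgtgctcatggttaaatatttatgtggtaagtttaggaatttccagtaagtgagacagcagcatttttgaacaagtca
Il12rb2: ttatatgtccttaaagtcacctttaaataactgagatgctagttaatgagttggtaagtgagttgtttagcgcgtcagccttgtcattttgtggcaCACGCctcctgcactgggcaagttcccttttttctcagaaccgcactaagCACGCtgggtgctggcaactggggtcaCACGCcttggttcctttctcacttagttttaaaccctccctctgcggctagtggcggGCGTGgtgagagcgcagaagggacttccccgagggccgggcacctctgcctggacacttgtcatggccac
The Ncmap window holds 1 Smad core, the Il1rl1 window 1 forkhead and 1 aryl hydrocarbon receptor core, and the Il12rb2 window 4 aryl hydrocarbon receptor cores. Of all 32851 promoters in the table, 49.6% hold the Smad core, 3.65% the forkhead motif and 32.4% the aryl hydrocarbon receptor core, and 1.33% hold the last at 4 or more places. Among the 24 genes with the lowest or highest statistics described next, 15 matched the table with 22 promoters. The Smad core was in 5 of the 13 promoters of the lower genes and 3 of the 9 of the higher genes, the forkhead motif in 1 and 0, and the aryl hydrocarbon receptor core in 4 and 3. A match is a run of letters and not a binding site.

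Prg4, which encodes the lubricating proteoglycan lubricin, fell in the knockout arrays by 1.98 on the log2 scale (standard error 0.11, a 3.95-fold difference, limma adjusted p = 1.17e-04, n = 6 arrays per arm). Its control values ran from 1.62 to 2.07 with a median of 1.79, and its knockout values from -0.67 to 0.37 with a median of -0.25. Every knockout array thus lay more than 1 log2 unit below every control array. The difference was -2.09 and -1.81 in the lower- and higher-intensity strata of the Lkb1 experiment and -2.16 and -1.59 in those of the Tgfbr2 experiment. It was -2.12 in the lower-intensity arrays alone (adjusted p = 0.0115) and was called whichever single array was left out, with adjusted p between 2.85e-04 and 0.00116.

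Ncmap, which encodes a protein of noncompact myelin in nerves, fell by 1.04 (standard error 0.11, adjusted p = 0.0374). Its control arrays ran from 0.69 to 1.52 (median 1.21) and its knockout arrays from -0.15 to 0.57 (median 0.15), without overlap. The lowest control array was Tgfbr2 control replicate 3 and the highest knockout array Lkb1 KO replicate 2. The direction held in all 4 strata (-1.24, -1.19, -0.88 and -0.84), but the call was lost on leaving out any 1 of 10 of the 12 arrays, with adjusted p up to 0.218, and in the lower-intensity arrays alone (-1.06, adjusted p = 0.865).

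**Figure D1:**
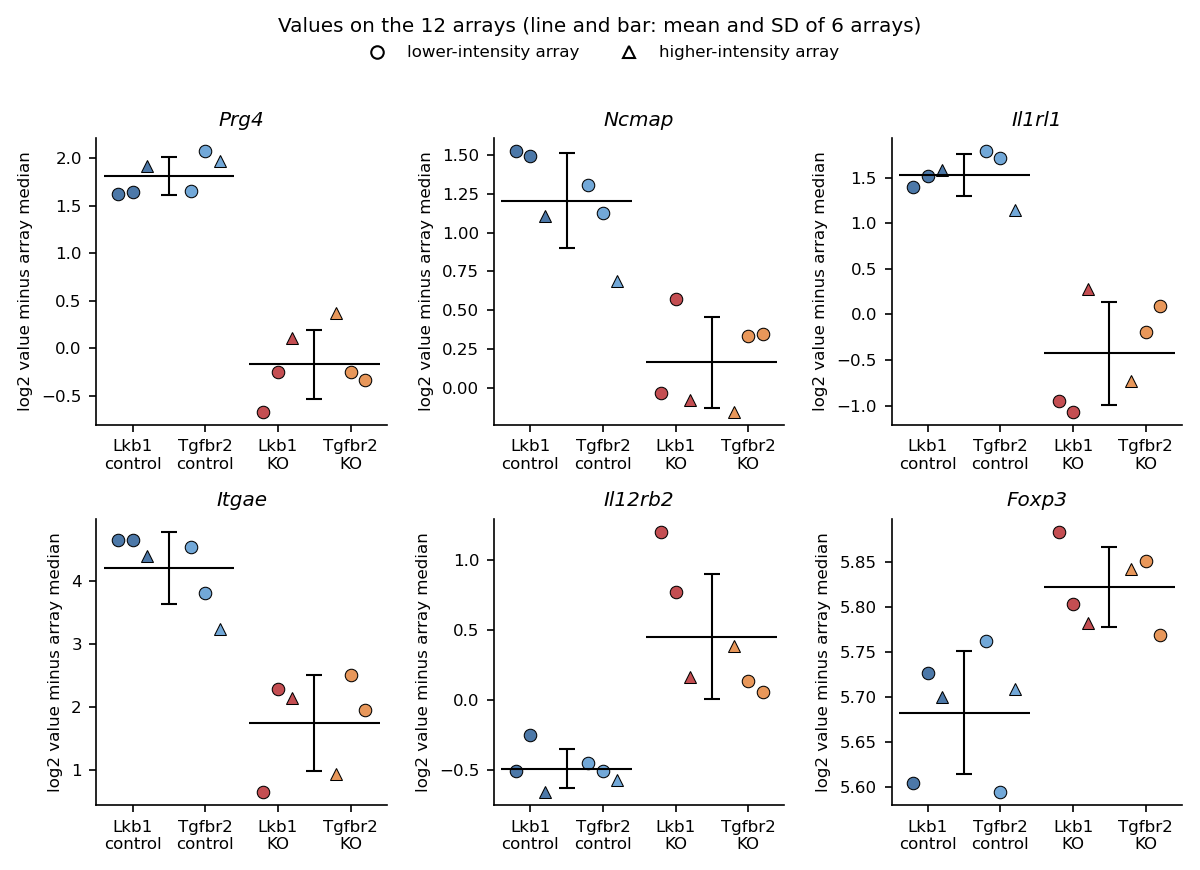
Values of 6 genes on the 12 arrays. The y axis is the log2 value minus the array median and the x axis the genotype group, circles are lower-intensity and triangles higher-intensity arrays, and the line and bar give the mean and SD of the 6 control or 6 knockout arrays. The knockout arrays lie below all control arrays for Prg4, Ncmap, Il1rl1 and Itgae and above them for Il12rb2 and Foxp3, where the Foxp3 means differ by 0.14.

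The next lowest genes included receptors of the IL-1 family and the integrin Itgae. Il1rl1 encodes ST2, which binds the alarmin IL-33 and marks Treg cells of tissues. It ran from 1.15 to 1.79 (median 1.55) on the control arrays and from -1.07 to 0.28 (median -0.46) on the knockout arrays. The difference of -1.95 (standard error 0.24) missed the threshold over all 12 arrays (adjusted p = 0.0923) and passed it in the lower-intensity arrays (-2.13, adjusted p = 0.0181). Il18r1, its neighbour on chromosome 1 and the receptor of IL-18, ran from 2.34 to 2.97 (median 2.67) against 1.30 to 2.28 (median 1.48). The arms of Il18r1 did not overlap, but the difference of -1.07 (standard error 0.18, adjusted p = 0.228) came from 3 strata (-1.32, -1.17 and -1.28), and the higher-intensity Tgfbr2 arrays differed by -0.06. Il18r1 differed by -1.30 in the lower-intensity arrays (adjusted p = 0.216). Of 13 measured genes of IL-1 and IL-18 signalling, 10 were lower, with a median of -0.11, and 0 passed adjustment. The lower genes at an unadjusted p under 0.05 were these receptors together with the decoy receptor Il1r2 (-0.99, standard error 0.44) and the inhibitory kinase Irak3 (-0.62, standard error 0.17). Of all 22709 named genes 52.9% were lower. At an unadjusted p under 0.05, 2.12% were lower and 1.22% higher. These shares are the background for the counts of every gene list over all 12 arrays.

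Itgae encodes CD103, the integrin α chain that binds E-cadherin on epithelia, and is a target of TGF-β. It ran from 3.23 to 4.65 (median 4.46) on the control arrays and from 0.65 to 2.50 (median 2.04) on the knockout arrays. The arms did not overlap, and the difference of -2.47 (standard error 0.34) was the largest of the genes with the lowest statistics. Its adjusted p was 0.126, and 0.0186 without Lkb1 KO replicate 1, on which it was lowest. Itgae differed by -2.56 in the lower-intensity arrays (standard error 0.41, adjusted p = 0.865). Among 19 integrin genes 16 were lower with a median of -0.06, and without Lkb1 control replicate 2 there were 13 with a median of -0.04. Itgb3, the β chain of the vitronectin receptor, was on the other side at 0.67 (standard error 0.13, adjusted p = 0.399), with control arrays from 1.28 to 2.20 (median 1.63) and knockout arrays from 2.17 to 2.54 (median 2.40), which overlapped.

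The other genes among the 12 with the lowest statistics, all lower in all 4 strata by the rule that chose them, did not pass the threshold. Cldnd1, a claudin domain protein of the membrane, ran from 4.41 to 4.89 (median 4.66) against 3.42 to 4.13 (median 3.66), a difference of -0.91 (standard error 0.13, adjusted p = 0.126). The arms of Cldnd1 did not overlap, and its 4 strata lay between -0.99 and -0.77. Gbp2b, an interferon-inducible GTPase with close relatives in its family that its probes may also read, differed by -0.96 (standard error 0.14, adjusted p = 0.138). Ctla2b, which resembles the propeptide of cysteine proteases and has a near-identical neighbour that its probes may also read, differed by -1.08 (standard error 0.17, adjusted p = 0.158). Fam3c, a secreted factor, differed by -0.58, Tlcd5 by -0.52, and Dst, a linker of the cytoskeleton, by -0.65, with adjusted p between 0.158 and 0.228. The 2 transcript clusters next to Il1rl1 in order of p, 17293244 and 17293243, have no symbol and differed by -1.51 and -1.24 (adjusted p = 0.0976 for both). Transcript clusters of nearby numbers were lower too. Those without a symbol, 17293238, 17293239 and 17293242, differed by -1.39, -1.51 and -1.05, and Golm1 (17293237) by -0.80 (adjusted p = 0.315). Whether they read the same transcript was not tested.

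No gene was called higher, and the highest statistic of a named gene was that of an IL-12 receptor chain. Il12rb2 encodes the chain of the IL-12 receptor that signals through Stat4 toward a Th1 programme. On the control arrays it ran from -0.66 to -0.25 (median -0.51), below the array median on all 6, and on the knockout arrays from 0.06 to 1.20 (median 0.27), above it on all 6. The difference was 0.94 (standard error 0.16, a 1.92-fold difference, adjusted p = 0.249), with strata at 1.37, 0.82, 0.58 and 0.96, and in the lower-intensity arrays it was 0.97 (standard error 0.19, adjusted p = 1.00). Stat4 ran from 3.95 to 4.59 (median 4.33) against 4.30 to 5.05 (median 4.84), overlapping, a difference of 0.45 (standard error 0.16, adjusted p = 1.00) that was higher in all 4 strata.

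The other genes with the highest statistics differed by less than 1 log2 unit, with adjusted p between 0.399 and 1.00. Gjb2, which encodes the gap junction protein connexin 26, ran from 1.55 to 2.28 (median 2.08) against 2.33 to 2.99 (median 2.61), with no overlap and a difference of 0.58 (standard error 0.11). Pde3b, a cyclic AMP phosphodiesterase that Foxp3 represses in mouse Treg cells, differed by 0.66 (standard error 0.14), and its strata lay between 0.57 and 0.78. Sla2, an adaptor that dampens antigen receptor signalling, differed by 0.33 (standard error 0.07), and Phlpp1, a phosphatase of the kinase Akt, by 0.67 (standard error 0.16). The immunoglobulin family gene Igsf23 differed by 0.98 (standard error 0.22), and Tecpr1, Cables1, Cyp4a31 and Cabp2 by between 0.30 and 0.40. In the lower-intensity arrays the 12 genes with the highest statistics lay between 0.34 and 1.17, the 12 with the lowest between -2.56 and -0.52, and of these 24 genes Prg4 and Il1rl1 were called.

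**Figure D2:**
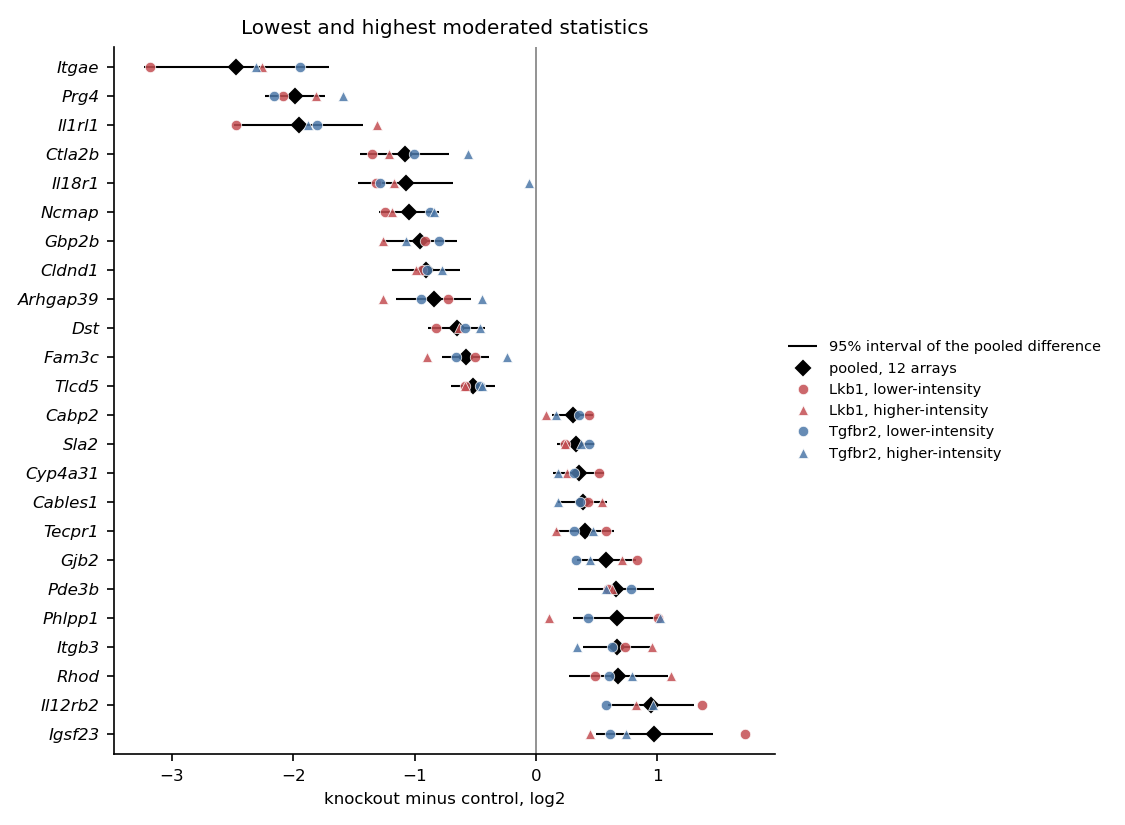
Log2 difference, knockout minus control, of the 12 genes with the lowest and the 12 with the highest moderated statistics that had the same sign in all 4 strata. Diamonds are pooled differences over 12 arrays with their 95% intervals, coloured symbols the differences within each stratum; Prg4 has strata between -2.16 and -1.59 and the higher-intensity Tgfbr2 stratum of Il18r1 lies at -0.06.

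Of 12 genes that the study lists for suppressive and inflammatory function 11 were found with a lower mean, and their median difference was -0.80, against -0.01 over 22709 named genes, of which 52.9% were lower. These genes were chosen by the study on these samples, so their count is no independent evidence of direction. None was called, 7 were lower at an unadjusted p under 0.05 (2.12% of named genes) and 0 higher (1.22% of named genes), 7 were lower in all 4 strata (8.82% of named genes), and 4 had all 6 knockout arrays below all 6 control arrays (0.11% of named genes). In the lower-intensity arrays 11 of 12 were lower with a median of -0.86. A two-sided exact permutation test of single genes exchanged the knockout labels within the strata, which gives 144 arrangements and no p under 0.0139. It was run for 18 genes, namely these 12, the deleted genes and Tgfbr1, Foxp3, Stat4 and Il12rb2. The exact p-values were not adjusted for the 18 tests. Those of the 12 genes that the study chose on these samples are likewise no independent evidence. The same holds for Tgfbr1 and Tgfbr2, which the study reported as lower in Lkb1-deficient Treg cells from its transcriptional profiling.

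Surface and secreted suppressor molecules differed in part. Nt5e encodes CD73, which makes adenosine from AMP. It ran from 4.39 to 5.06 (median 4.66) on the control arrays and from 2.30 to 4.22 (median 3.37) on the knockout arrays, with no overlap, and differed by -1.39 (standard error 0.29, limma adjusted p = 0.538, exact p = 0.0139). Nt5e differed by -0.77 and -1.88 in the lower- and higher-intensity Lkb1 strata and by -2.22 and -0.47 in those of the Tgfbr2 experiment. In the lower-intensity arrays Nt5e differed by -1.499 (standard error 0.31, adjusted p = 1.00). Entpd1, which encodes CD39 and makes AMP from ATP, ran from 1.31 to 2.50 (median 1.88) against 0.55 to 1.63 (median 1.38), overlapping. Entpd1 differed by -0.63 (standard error 0.20, limma adjusted p = 0.99997, exact p = 0.0139). Among 8 measured genes of adenosine handling these were the members with an unadjusted p under 0.05, and the median was -0.07. Fgl2, a secreted suppressor of T cells, ran from 1.26 to 1.69 (median 1.46) against 0.57 to 1.20 (median 0.94), without overlap, and differed by -0.54 (standard error 0.11, adjusted p = 0.530, exact p = 0.0139). Il10 ran from -0.13 to 3.13 (median 1.78) against -0.74 to 2.18 (median 1.15), a spread within each arm that exceeded the difference of -0.78 (standard error 0.42, exact p = 0.111).

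The list also holds receptors. Nrp1, the semaphorin receptor neuropilin-1 that marks thymus-derived Treg cells, ran from 3.84 to 4.69 (median 4.44) against 2.39 to 4.32 (median 3.76). It differed by -0.82 (standard error 0.28, limma adjusted p = 0.99997, exact p = 0.0139). The arms of Nrp1 overlapped. Nrp1 differed by -1.46 and -0.37 in the lower- and higher-intensity Lkb1 strata and by -0.29 and -1.07 in those of the Tgfbr2 experiment. Ccr6, the receptor of the chemokine Ccl20, differed by -0.89 (standard error 0.21, limma adjusted p = 0.820, exact p = 0.0278). For Ccr6, 3 strata lay between -1.51 and -0.92 and the higher-intensity Tgfbr2 stratum at 0.21. Itgae and Il1rl1, described above, had an exact p of 0.0139. The other 4 members had exact p between 0.0972 and 0.875: the NADPH oxidase subunit Cybb differed by -0.82 (standard error 0.72), the coagulation inhibitor Tfpi by -0.20 (standard error 0.14), the cytokine Il18 by -0.20 (standard error 0.52) and the TNF family ligand Tnfsf8 by 0.29 (standard error 0.34). On Lkb1 control replicate 2, Il18 lay near 3.5, and the other 5 control arrays lay between -1.06 and 0.57.

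**Figure D3:**
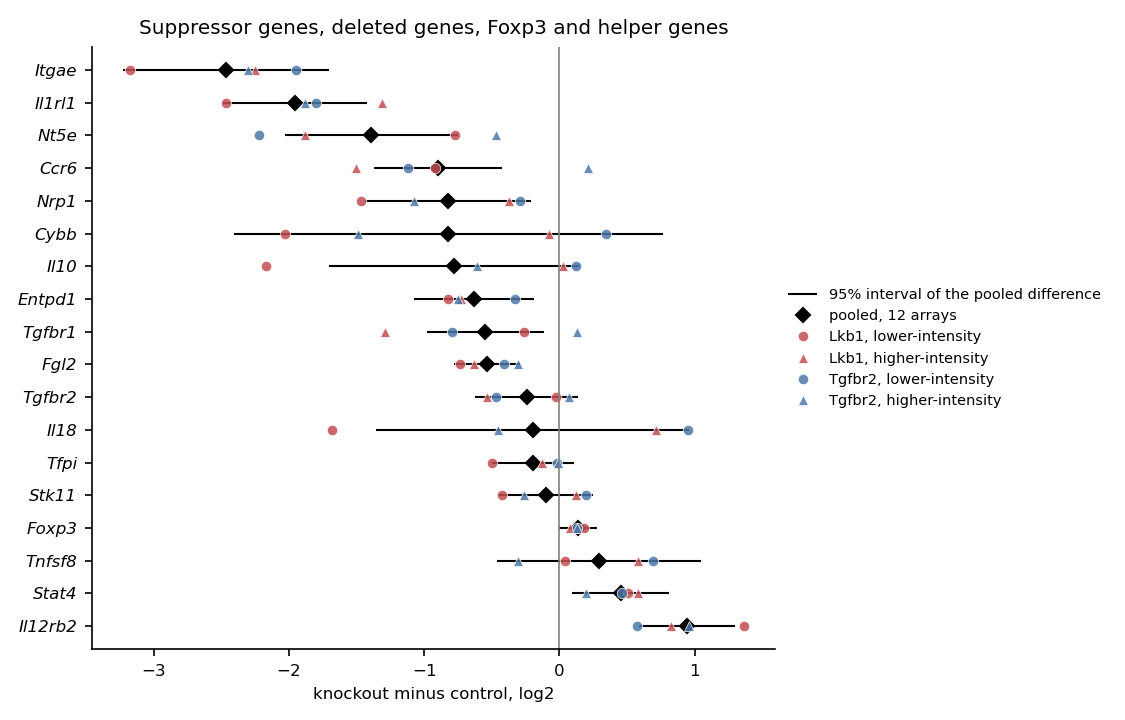
Log2 difference, knockout minus control, of the 12 suppressor genes, the deleted genes, Tgfbr1, Foxp3, Stat4 and Il12rb2. Diamonds and lines are pooled differences with 95% intervals and coloured symbols the strata; the intervals of Cybb (-2.41 to 0.77) and Il18 (-1.35 to 0.96) include 0, and that of Il12rb2 (0.59 to 1.30) does not.

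Among the genes the comparison is built on, Stk11 differed by -0.10 (standard error 0.16, exact p = 0.472) and Tgfbr2 by -0.24 (standard error 0.17, exact p = 0.181). By experiment, Stk11 differed by -0.24 in the Lkb1 arrays (standard error 0.18) and Tgfbr2 by -0.29 in the Tgfbr2 arrays (standard error 0.16). Whether the transcript clusters cover the deleted exons was not examined, so these values do not check the labels. Tgfbr1 ran from 2.02 to 2.61 (median 2.14) against 1.11 to 2.54 (median 1.62). It differed by -0.55 (standard error 0.19, limma adjusted p = 0.99997, exact p = 0.0278). The difference of Tgfbr1 was -0.26 and -1.29 in the lower- and higher-intensity Lkb1 strata and -0.79 and 0.13 in those of the Tgfbr2 experiment. Foxp3 itself was higher on all 6 knockout arrays, 5.77 to 5.88 (median 5.82) against 5.59 to 5.76 (median 5.70), but by 0.14 (standard error 0.06, a 1.10-fold difference, adjusted p = 1.00, exact p = 0.0139). It was among 5 named genes whose knockout arrays all exceeded the control arrays (0.022%), with Il12rb2, Gjb2, Esm1 and 9430014N10Rik; Esm1 and 9430014N10Rik differed by 0.21 and 0.28. The 5 were named after their values were seen.

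Over all transcript clusters 33 had all 6 knockout arrays below (0.0798%) and 16 above (0.0387%) all 6 control arrays. How many would separate like this by chance was not tested. A lack of overlap, here and elsewhere, therefore describes the arrays and is no evidence of a difference by itself. On the lower side 25 named genes had no overlap between the arms (0.11%). Besides those above they included, named after their values were seen, Rgs1 (-0.99, standard error 0.18), a regulator of G protein signalling that limits T cell migration, and Gpr15 (-0.92, standard error 0.17), a receptor that directs T cells to the large intestine. Cd38, an ectoenzyme that consumes NAD, was at -0.70 (standard error 0.21), Acvr2a, an activin receptor of the TGF-β family, at -0.66 (standard error 0.14), and Ldlrad4, a negative regulator of TGF-β signalling, at -0.75 (standard error 0.17). Their adjusted p lay between 0.318 and 1.00.

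Genes of Treg identity lay on both sides. Of 20 measured, 10 were lower and 10 higher, and the median was 0.01. At an unadjusted p under 0.05 the lower ones were Itgae, Nrp1, Ikzf4, Capg and Socs2, and the higher ones Foxp3, Pde3b and the TNF receptor genes Tnfrsf18 (0.32, standard error 0.12) and Tnfrsf9 (0.47, standard error 0.13), which encode GITR and 4-1BB. Of 24 genes of effector Treg cells 22 were lower, with a median of -0.56, 7 of them in all 4 strata (8.82% of named genes); in the lower-intensity arrays 22 were lower with a median of -0.61. Their mean level differed unevenly over the strata. On the lower-intensity Lkb1 arrays it was 3.07 and 3.22 in control against 1.40 and 2.23 in knockout, and on the higher-intensity Tgfbr2 arrays 2.19 against 1.30. On the lower-intensity Tgfbr2 arrays it was 3.00 and 2.64 against 2.86 and 2.86, and on the higher-intensity Lkb1 arrays 2.61 against 2.57. The knockout arrays with the lowest levels were Lkb1 KO replicates 1 and 2 and Tgfbr2 KO replicate 1. These also stand together in the genes with the smallest p among strata, described further on. The level of Tgfbr2 control replicate 3 (2.19) lay below that of Lkb1 KO replicate 2 (2.23). Irf4, a transcription factor of effector Treg cells, was at -0.31 (standard error 0.13) and Cxcr6, a chemokine receptor, at -0.86 (standard error 0.32), with adjusted p of 1.00 for both. Of 23 chemokine and homing receptors 17 were lower (median -0.14), with Ccr4 at -0.88 (standard error 0.28), Ccr10 at -0.49 (standard error 0.20), Ccr6, Cxcr6 and Gpr15 at an unadjusted p under 0.05, and no receptor above 0 reached it. Beside the counts of these 3 lists, 52.9% of named genes were lower. At an unadjusted p under 0.05, 2.12% of named genes were lower and 1.22% higher.

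Of 25 cytokine receptor and Stat genes 13 were lower and 12 higher. Il23r (-0.82, standard error 0.21), the receptor of IL-23, and Il6ra (-0.58, standard error 0.17) stood against Il12rb2 and Stat4 at an unadjusted p under 0.05. Of 11 genes of the aryl hydrocarbon receptor pathway 8 were lower with a median of -0.09. Ahr itself, a ligand-activated transcription factor, named after its values were seen, ran from 1.89 to 3.02 (median 2.53) against 0.11 to 2.03 (median 0.72), overlapping, and differed by -1.60 (standard error 0.29, adjusted p = 0.318). It was lower in every stratum (-1.03, -2.48, -2.07 and -0.90), and in the lower-intensity arrays it differed by -1.55 (standard error 0.30, adjusted p = 1.00). Gpr15, described above, was the other member at an unadjusted p under 0.05.

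Metabolic lists showed small differences, and none of their members was called. Of 24 genes of the Lkb1 complex, AMPK and related kinases 13 were lower (median -0.05), with Cab39l at -0.30 (standard error 0.12), the AMPK subunits Prkag2 at -0.26 (standard error 0.10) and Prkaa1 at -0.15 (standard error 0.06), and the related kinase Sik3 at 0.25 (standard error 0.11). Of 18 glycolysis genes 12 were higher (median 0.06), of 23 oxidative phosphorylation genes 20 were lower (median -0.03), and of 19 mTOR pathway genes 10 were lower (median -0.01). The oxidative phosphorylation count was 14 (median -0.02) in the lower-intensity arrays and 15 (median -0.01) without Lkb1 control replicate 2. Without that array the median of the Lkb1 list was -0.02, and that of the mTOR list turned to 0.02 in the lower-intensity arrays. In cholesterol and fatty acid synthesis 13 of 17 were lower (median -0.06), with the sterol enzymes Sqle (-0.36, standard error 0.13), Cyp51 (-0.34, standard error 0.12) and Fdft1 (-0.22, standard error 0.09) and the sterol sensor Insig1 (-0.53, standard error 0.22) against the fatty acid elongase Elovl6 (0.70, standard error 0.20). That count was 9 (median -0.0037) in the lower-intensity arrays and 10 (median -0.02) without Lkb1 control replicate 2. All 23 cell cycle genes had a lower mean, with a median of -0.14 and 0 at an unadjusted p under 0.05. Without Lkb1 control replicate 2 only 15 of 23 were lower and the median was -0.05.

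Markers of other cells also differed between the arms. Of 18 macrophage and monocyte markers 16 were lower, with a median of -0.44, and 1, Axl, reached an unadjusted p under 0.05 (-1.06, standard error 0.29). Their mean level ran from -0.04 to 3.44 on the control arrays and from -0.02 to 1.34 on the knockout arrays. The highest was Lkb1 control replicate 2, on which 16 of the 18 were highest of all 12 arrays. Without it 6 of the 18 were lower and their median was 0.05, while the suppressor genes had 10 of 12 lower and a median of -0.63 and the effector Treg genes 22 of 24 and -0.46. The lower-intensity arrays include Lkb1 control replicate 2, and there 15 of the 18 macrophage and monocyte markers were lower with a median of -0.73. Of 16 B cell and plasma cell markers 12 were lower (median -0.17), or 8 in the lower-intensity arrays (median -0.01), and their mean level was highest on the higher-intensity Lkb1 control (1.76) and Lkb1 KO (1.10) arrays and at most 0.51 on the other 10. The array scale has no zero, so no marker can be called absent. The part of these cells in the differences of the suppressor, effector Treg and cell cycle genes was not tested.

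**Figure D4:**
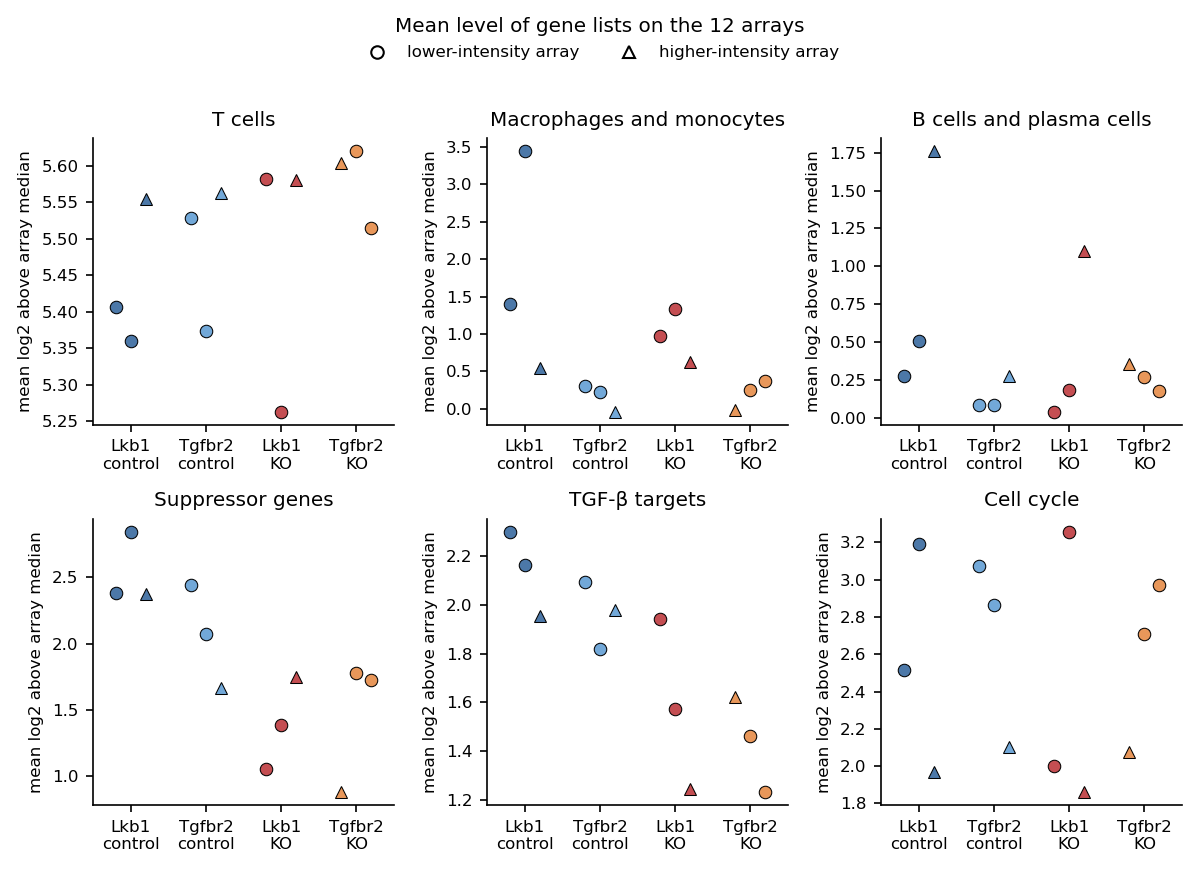
Mean log2 level above the array median of 6 gene lists on each of the 12 arrays, by genotype group; circles are lower-intensity and triangles higher-intensity arrays. T cell markers stay between 5.26 and 5.62, macrophage and monocyte markers reach 3.44 on 1 Lkb1 control array, and the suppressor gene level lies between 1.67 and 2.84 on control arrays and between 0.88 and 1.78 on knockout arrays.

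No transcript cluster was called for a knockout difference that varied between the experiments or among the strata. Of all transcript clusters 3167 were lower in all 4 strata (7.66%) and 2605 higher (6.3%). A test of the difference between the experiments called 0 (0%), with 1100 at an unadjusted p under 0.05 (2.66%), and a test among the 4 strata called 0 (0%), with 1410 (3.41%) and a smallest adjusted p of 0.143. Across transcript clusters, the differences of the lower-intensity Lkb1 stratum correlated with those of the higher-intensity Tgfbr2 stratum at r = 0.10 and with those of the lower-intensity Tgfbr2 stratum at r = -0.08, and those of the higher-intensity Lkb1 stratum with those of the lower-intensity Tgfbr2 stratum at r = 0.10 and with those of the higher-intensity Tgfbr2 stratum at r = -0.01. Within an experiment the correlations of the strata were 0.04 and 0.06. These strata share no arrays, and the transcript clusters are not independent points.

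Some pooled differences averaged unlike arrays. Smad7, an inhibitor that Smad signalling induces, lay between 3.45 and 4.13 on the 6 control arrays. On the knockout arrays it lay at 4.19, 3.04 and 0.56 (Lkb1 KO replicates 1, 2 and 3) and at 4.15, 0.30 and 0.48 (Tgfbr2 KO replicates 1, 2 and 3). Its pooled difference of -1.65 (standard error 0.74, adjusted p = 1.00) was therefore the mean of 3 arrays near the control range and 3 more than 2 log2 units below it. Skil, a Smad corepressor, followed the same arrays, with 3.72, 3.05 and 0.24 and with 3.57, 0.63 and 0.45 against 3.08 to 3.55. Smad7 and Skil were named after their values were seen. Neither passed the limma F test among the strata (adjusted p = 0.395 and 0.209).

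The 6 genes chosen by the smallest p among strata (adjusted p between 0.143 and 0.145, so none called) repeated this order of arrays in all but Fpr-rs6, of the formyl peptide receptor family, for which Lkb1 KO replicate 3 alone stood apart (2.29 in its stratum against -0.56, 0.24 and 0.23). Ctsw, a cathepsin of cytotoxic lymphocytes, lay between 3.55 and 4.11 on control arrays, at 3.91, 3.46 and 0.97 on Lkb1 KO replicates 1 to 3 and at 3.98, 1.19 and 1.11 on Tgfbr2 KO replicates 1 to 3. Apol9b, of the apolipoprotein L family, differed by -5.33 in the higher-intensity Lkb1 stratum and -3.30 in the lower-intensity Tgfbr2 stratum, against -0.52 and -0.24 in the other strata. Itgb1, the integrin β1 chain, took the opposite arrays: it lay between 3.35 and 3.85 on control arrays, at 1.45 and 1.47 on Lkb1 KO replicates 1 and 2 and at 1.62 on Tgfbr2 KO replicate 1, but at 3.97, 4.37 and 4.35 on the other 3 knockout arrays. Csf1, a growth factor of macrophages, lay at 0.82, 0.87 and 0.76 on the former arrays and at 3.72, 3.19 and 3.08 on the latter, with controls between 1.69 and 2.05, and its pooled difference was 0.23 (standard error 0.55). Plcb4, a phospholipase C, split alike (-1.11, 0.96, 0.82 and -0.90 over the strata). In these 5 genes, Smad7 and Skil, Lkb1 KO replicate 3 thus lay near the lower-intensity Tgfbr2 KO arrays and Tgfbr2 KO replicate 1 near the lower-intensity Lkb1 KO arrays.

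**Figure D5:**
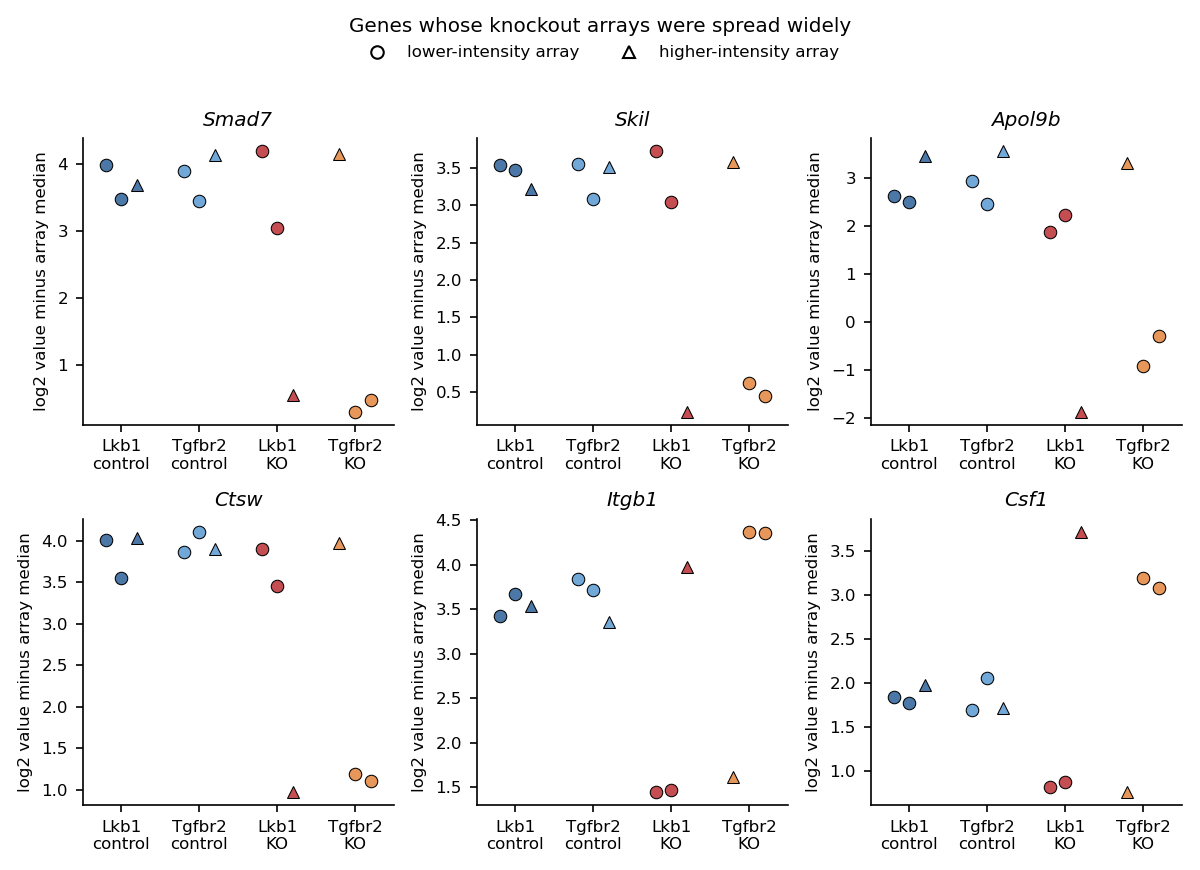
Values of Smad7, Skil and 4 of the genes with the smallest p among strata on the 12 arrays (y axis, log2 value minus the array median; x axis, genotype group; circles, lower-intensity and triangles, higher-intensity arrays). For each gene the 6 control arrays lie together, and Lkb1 KO replicate 3 lies with Tgfbr2 KO replicates 2 and 3 while Tgfbr2 KO replicate 1 lies with Lkb1 KO replicates 1 and 2.

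All 19 measured TGF-β targets and feedback genes had a lower mean, with a median of -0.23, whereas 52.9% of named genes were lower. Among the 19, 7 reached an unadjusted p under 0.05 (2.12% of named genes) and 0 were called. Like the other lists, this list was chosen with earlier results of these data known, so its count is no independent evidence of direction. Of these 19, 5 were lower in all 4 strata (8.82% of named genes) and 1, Itgae, had no overlap between the arms (0.11% of named genes). The 7 were Itgae, Smad7, Skil, Ski (-0.39, standard error 0.17), Smurf2 (-0.39, standard error 0.13), Id2 (-0.53, standard error 0.19) and Rgs16 (-1.19, standard error 0.40). In the lower-intensity arrays 18 of 19 were lower with a median of -0.33, and without Lkb1 control replicate 2 likewise 18 with a median of -0.30. Of 20 receptors, Smads and activators of the ligand 12 were lower with a median of -0.05.

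Directions found in some arrays were looked up in arrays that had not been used to find them, with no test. Of the 50 transcript clusters with the lowest statistics in the 8 lower-intensity arrays 44 were lower in the higher-intensity arrays (88%, exact 95% interval 75.7 to 95.5%), where 53.5% of all transcript clusters were lower. Of the 50 highest 30 were higher (60%, interval 45.2 to 73.6%), against 46.5%. From the Lkb1 to the Tgfbr2 arrays 38 of the 50 lowest were lower (76%, against 46.9% of all), and from the Tgfbr2 to the Lkb1 arrays also 38 (76%, against 53.1%). Of the 50 highest, 31 (62%, against 53.1%) and 23 (46%, against 46.9%) were higher, respectively. The split by experiment rests on the labels, and whether the higher-intensity arrays were exchanged was not tested. If they were, each side would hold arrays of both deletions. The transfer could then not tell a change common to both deletions from a change after a single deletion. From the higher- to the lower-intensity arrays the counts were 36 lower (72%, against 48.2%) and 33 higher (66%, against 51.8%). With 20 transcript clusters in place of 50 the transfer from the Lkb1 to the Tgfbr2 arrays gave 14 lower (70%) and 15 higher (75%). Transcript clusters that vary together are not independent, so the intervals cover counting error only.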

How the data were processed

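RNA of 12 samples of sorted Treg cells was hybridized to Affymetrix Mouse Genome 2.0 arrays. The authors used GeneSpring GS 11 (Agilent) and deposited log2 values of 41345 transcript clusters. The sources used here do not give their summarization and normalization. Here each array was centred on its median, and limma 3.58.1 in R 4.3.3 (lmFit, eBayes, no filter) compared 6 knockout with 6 control arrays, with experiment and intensity set (array median over or under 6) as blocks and Benjamini-Hochberg adjustment at 0.05. The intensity set was thus read from the arrays. Symbols came from the platform annotation (23521 transcript clusters with 1 symbol, 1820 with several, not named, and 16004 with none, of which 588 were named from identifiers in the study's supplementary tables), with the transcript cluster of highest mean per gene, for 22709 genes. Array coordinates are not given, because the sources used here do not give their build. The number of arrays limits the precision, and p-values measure the spread between arrays, which may be partly technical.

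The members and the 40 gene lists were chosen with earlier results of these data known. Genes named are the suppressor genes of the study with Stk11, Tgfbr1, Tgfbr2, Foxp3, Stat4 and Il12rb2, the 12 lowest and 12 highest moderated statistics with 1 sign in all 4 strata (called genes first, leaving out olfactory and vomeronasal receptors, predicted loci, small RNAs and segments of antigen receptors), up to 3 called members of each list, the 6 smallest adjusted p among strata and the sex-linked genes. No list had a called member, and all other genes were named after their values were seen, mostly as list members at an unadjusted p under 0.05. Whether same-numbered arrays pair was checked from how their deviations from group means correlated, and alternatives were run for blocks, scaling, variance model, filters, thresholds, test and arrays. The script was tested on simulated data. Columns of the authors' own comparisons and real-time PCR values were not used.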

Additional observations from a re-analysis of the deposited data

Results flagged for a closer look

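Among 78 groups of 6 arrays examined (39 genes, both arms), 4 held 1 array that stood apart after the blocks were removed (the gap to the nearest array over the range, compared with Dixon's 95% critical value for 6 arrays). Chance gives this in about 1 in 20 groups, so 4 is near the number chance gives. All values that follow are adjusted for the blocks. The ratio was 0.68 for Il1rl1 in the control arrays, where Tgfbr2 control replicate 3 lay at 0.94 and the other 5 between 1.40 and 1.62. It was 0.654 for Ncmap in the knockout arrays, where Lkb1 KO replicate 1 lay at -0.03 and the others between 0.36 and 0.57. It was 0.715 for Il18 in the control arrays, where Lkb1 control replicate 2 lay near 3.5 and the others between 0.57 and 1.40. It was 0.659 for Nt5e in the control arrays, where Tgfbr2 control replicate 1 lay at 5.26 and the others between 4.63 and 4.85. No gene passed the test of the difference between the experiments.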

How the results depend on the processing

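The difference of Prg4 kept its direction in all 28 alternatives and was called in 25, the exceptions being the higher-intensity, the Lkb1 and the Tgfbr2 arrays alone. Ncmap and Il1rl1 kept their direction in all 28 and were called in 7 and 8. Against 2 transcript clusters called lower, 1 was called with the experiment as the only block, with the values as deposited, after quantile normalization, at an adjusted p under 0.01 and in the methods' t-test after Benjamini-Hochberg adjustment, 7 with array weights, 5 at an adjusted p under 0.1, and 0 in the higher-intensity, Lkb1 or Tgfbr2 arrays alone. With the 4 strata as a random block 16 were called lower and 2 higher (Il12rb2 and transcript cluster 17201357, which has no symbol). The methods' t-test reached an unadjusted p under its threshold for 407 lower and 317 higher. With 1 array left out, 1 to 3 were called lower and 0 higher, and 0 to 1 for the difference between the experiments; that 1, an immunoglobulin kappa variable segment, came without Lkb1 control replicate 1 (adjusted p = 0.00784). The cause was not tested.

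With the experiment and replicate number as a block 1 transcript cluster was called lower, Prg4 (adjusted p = 0.0229). Whether the numbers pair the arrays was not settled. Same-numbered deviations correlated at 0.39, 0.30 and 0.74 in the Lkb1 and at -0.52, 0.23 and -0.57 in the Tgfbr2 experiment, where numbers 1 and 3 cross the intensity sets. Pairs across the intensity sets correlated negatively and pairs within a set positively. Differently numbered lower-intensity Lkb1 arrays correlated at 0.45 and 0.11.

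Il18 and Stk11, neither called, changed sign. Il18 lay at 0.0099 with array weights, 0.32 without Lkb1 control replicate 2, 0.09 without Lkb1 KO replicate 1, 0.13 in the higher-intensity arrays and 0.48 in the Tgfbr2 arrays. Stk11 lay at 4.87e-04 with array weights, 0.0043 without Lkb1 KO replicate 2 and 0.042 in the Tgfbr2 arrays. With 1 array left out, Il18 ran from -0.37 to 0.32 and Stk11 from -0.20 to 0.0043. With 20 transcript clusters in place of 50, 100% of the lowest in the lower-intensity arrays were lower in the higher-intensity arrays, 50% of the highest in the higher-intensity arrays were higher in the lower-intensity arrays, and 65% of the highest of the Tgfbr2 arrays were higher in the Lkb1 arrays.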
